A study of Mus musculus with 5 samples.

Results

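The genes described here are nuclear genes for subunits, and some assembly factors, of mitochondrial oxidative phosphorylation: the respiratory complexes I to IV and the ATP synthase (complex V), in neonatal mouse pancreas. The rule that picked them reads gene symbols, not values, and takes probe sets with a single gene symbol that begins with Nduf, Uqcr, Atp5 or Cox4 to Cox8, or that is Sdha, Sdhb, Sdhc, Sdhd or Cyc1. This gave 115 probe sets of 90 genes, out of 21789 probe sets of 19938 genes. Complex I holds 41 of the 90 (6 core subunits, 28 accessory subunits and 7 assembly factors), complex II 4, complex III 9, complex IV 19 and complex V 17. RNA of whole pancreas at postnatal day 1 was profiled in 2 control and 3 Pdx1cKO mice of a single litter, with 1 Mouse Gene 1.0 ST array for each mouse. Pdx1cKO mice were Elastase-Cre;Pdx1loxP/loxP, so that Pdx1, a transcription factor needed to form the pancreas, was deleted in the exocrine cells in which the elastase promoter drives Cre. Control mice are labelled as not recombinated, and no source used here gives the alleles that they carried.

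In the respiratory chain, complexes I and II take electrons from NADH and succinate, complex III passes them to cytochrome c and complex IV hands them to oxygen. Protons pumped on the way drive complex V, which makes ATP. Some complex IV subunits have alternative isoforms. Cox6a2, Cox7a1 and Cox8b are the heart and skeletal muscle forms, of which Cox7a1 and Cox8b are also known from brown fat, and they stand in place of the general Cox6a1, Cox7a2 and Cox8a.

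Intensities are given on a linear scale as deposited, and each log2 fold change is the mean log2 intensity of Pdx1cKO minus that of control. For Pdx1 itself, whose probes may lie outside the deleted part, the controls gave 67.9 and 113 and Pdx1cKO mice 1 to 3 gave 48.4, 48.4 and 42.9 (log2 fold change -0.91, limma adjusted p = 0.385). Marker lists of the pancreas and of other tissues differed between the groups or set single arrays apart. Summed acinar markers were 83959 and 59729 in the controls against 15181 to 26056 in the mutants, and islet markers 8116 and 7439.7 against 3748 to 4790.3. Liver markers were 4433 and 4814 against 13525 to 34731, granulocyte markers 447 and 458 against 1334 to 3606 and erythroid markers 339 and 355 against 838 to 2593. Stomach markers, of which 9 of 10 were highest in control 2, summed to 531 and 16521 in controls 1 and 2. Skeletal muscle markers, of which 12 of 12 were highest in Pdx1cKO mouse 1, summed to 10934, 1559.8 and 3468 in the mutants and 875 and 1032 in the controls. No detection calls were available, so that no marker can be called absent. In whole tissue, fewer cells of a type and less RNA per cell cannot be told apart.

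Promoters of 6 members are shown because the results turn on these genes: the muscle isoforms Cox8b and Cox7a1 beside their general counterparts Cox8a and Cox7a2, and Ndufa5 and Atp5k, which lay lower in every mutant. Each runs from 250 bases before to 50 bases after an annotated start, 5′ to 3′ on the strand of the gene, from RefSeq on GRCm38.p6. The windows are chr7:140900397-140900696, chr19:7217567-7217866, chr7:30183921-30184220, chr9:79759804-79760103, chr6:24527641-24527940 and chr5:108434350-108434649 in that order of naming below, with Cox7a1 on the plus strand and the others on the minus strand. Capitals mark matches, on either strand, to the following patterns, and matches did not overlap. The first are the core of the NRF1 motif (GCGCA, any 1 base, GCGC) and an ETS core that GABP binds (CCGGAAG). The others are a simplified MEF2-like pattern (CTA, any 4 bases, TAG), which does not stand for all MEF2 sites, and an E-box (CAGCTG).
Cox8b: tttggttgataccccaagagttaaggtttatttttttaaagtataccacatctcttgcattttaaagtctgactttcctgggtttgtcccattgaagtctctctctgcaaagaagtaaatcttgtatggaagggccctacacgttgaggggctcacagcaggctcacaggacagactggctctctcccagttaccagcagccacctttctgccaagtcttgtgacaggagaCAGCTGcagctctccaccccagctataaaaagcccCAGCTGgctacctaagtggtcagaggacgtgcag
Cox8a: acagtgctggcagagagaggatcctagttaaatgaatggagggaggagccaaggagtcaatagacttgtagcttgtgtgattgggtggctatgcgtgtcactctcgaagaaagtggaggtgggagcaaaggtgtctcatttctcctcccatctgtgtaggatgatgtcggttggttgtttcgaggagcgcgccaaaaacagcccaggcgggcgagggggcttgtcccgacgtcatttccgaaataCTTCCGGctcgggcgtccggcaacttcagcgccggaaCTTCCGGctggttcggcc
Cox7a1: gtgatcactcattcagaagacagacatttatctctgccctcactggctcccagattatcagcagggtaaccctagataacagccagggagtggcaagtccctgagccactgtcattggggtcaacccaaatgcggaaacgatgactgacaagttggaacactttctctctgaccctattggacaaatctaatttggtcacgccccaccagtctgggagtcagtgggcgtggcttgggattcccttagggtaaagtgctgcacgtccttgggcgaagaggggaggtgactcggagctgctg
Cox7a2: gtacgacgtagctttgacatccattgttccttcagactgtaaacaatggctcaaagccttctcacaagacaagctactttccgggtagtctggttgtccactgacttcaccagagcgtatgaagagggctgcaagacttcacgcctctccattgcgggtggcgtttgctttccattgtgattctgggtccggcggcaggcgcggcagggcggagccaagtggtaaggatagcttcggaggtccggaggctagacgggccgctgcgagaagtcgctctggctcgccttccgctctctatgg
Ndufa5: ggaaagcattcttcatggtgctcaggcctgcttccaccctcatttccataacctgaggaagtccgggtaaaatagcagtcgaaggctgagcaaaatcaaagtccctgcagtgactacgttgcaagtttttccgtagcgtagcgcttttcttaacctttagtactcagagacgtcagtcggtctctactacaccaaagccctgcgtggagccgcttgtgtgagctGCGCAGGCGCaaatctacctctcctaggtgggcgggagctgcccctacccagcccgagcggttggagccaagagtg
Atp5k: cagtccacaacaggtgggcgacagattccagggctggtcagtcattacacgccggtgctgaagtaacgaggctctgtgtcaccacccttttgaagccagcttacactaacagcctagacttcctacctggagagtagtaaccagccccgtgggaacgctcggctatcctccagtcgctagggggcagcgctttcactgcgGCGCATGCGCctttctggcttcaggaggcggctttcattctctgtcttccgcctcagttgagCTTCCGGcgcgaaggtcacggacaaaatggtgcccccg

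Cox8b held CAGCTG at bases 232 and 267 of its window and 2 CG dinucleotides. Cox8a held CCGGAAG at bases 246 and 283 and 19 CG dinucleotides. Cox7a1 and Cox7a2 matched none of these patterns and held 7 and 20 CG dinucleotides, where the median over all genes was 7. Ndufa5 matched the NRF1 core at base 225, and Atp5k matched it at base 201 and the ETS core at base 263. Of the 73 members with a promoter in the table, 18 (24.7%) held the NRF1 core, against 5.19% of 27025 genes. The ETS core was in 24.7% of members and 9.93% of all genes, the MEF2-like pattern in 2.74% and 4.23%, and CAGCTG in 8.22% and 18.3%. A match is a description of the letters in this window only.

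Most subunits lay close to the control level in Pdx1cKO pancreas. The median log2 fold change was 0.01 over the 90 members and -0.0012 over all genes, with 41 members below 0, 48 above and 1 at 0. The log2 fold change was under 0.5 in size in 87 members (96.7%), against 93.6% of all genes. Exceptions were the muscle isoforms Cox6a2, Cox7a1 and Cox8b. No member passed an adjusted p of 0.05 by limma, where 0% of all genes passed in either direction. The methods' t-test, adjusted likewise, passed 0 members. At an unadjusted limma p under 0.05, 2 members were lower (2.22%) and 3 higher (3.33%), beside 5.04% and 5.29% of all genes. All 3 mutants lay below both controls in 7 members (7.78%) and above both in 9 (10.0%), beside 11.7% and 12% of all genes. With all 5 arrays, these shares did not exceed the background. Without Pdx1cKO mouse 1 the counts without overlap were 9 and 10 of 90 (all genes 13.2% and 14.2%). Without control 2 they were 12 and 50 of 90 (all genes 33.3% and 25.5%), so that the share above then exceeded that of all genes. Control 1, the array then left, was the lower control in 69 members. The count was not made without control 1, and the arrays to leave out were chosen after the data were seen. It therefore does not show that members were higher in the mutants. The 95% confidence interval lay within 1 log2 of 0 in 84 members (93.3%, all genes 90.6%) and within 0.5 in 54 (60.0%, all genes 73.4%).

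**Figure D1:**
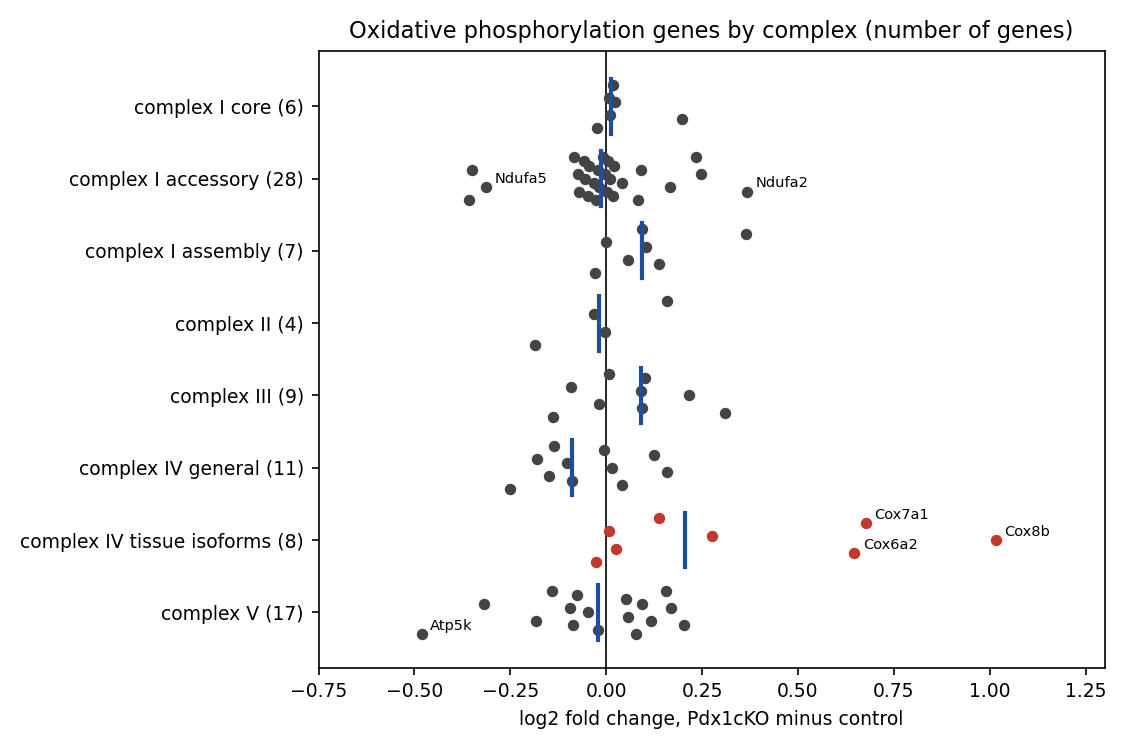
Log2 fold change, Pdx1cKO minus control, of the 90 genes (1 point each) by complex and role, with blue bars at the group medians and tissue isoforms in red. Cox6a2, Cox7a1 and Cox8b are the points beyond 0.5 in size, and the other 87 lie between -0.48 and 0.37.

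The controls differed from each other more than the mutants did. Control 2 was higher than control 1 in 69 members (76.7%) and lower in 13, while it was higher in 38.6% of all genes. The median gap on the log2 scale, control 2 minus control 1, was 0.15 over the members and 0 over all genes. It came to 0.10 in complex I, 0.29 in complex II, 0.34 in complex III, 0.17 in complex IV and 0.28 in complex V. All 3 mutants lay within the range of the controls in 37 members (41.1%), against 24.8% of all genes. The median SD of log2 intensity was 0.134 among controls (n = 2) and 0.0443 among mutants (n = 3), beside 0.0738 and 0.0396 over all genes. Control 2 had the highest summed stomach markers, among them Atp4a and Atp4b of the acid-secreting parietal cell (78.1 and 51.1 in control 1, 762 and 536 in control 2). Acinar markers were higher in control 1, in 12 of 12. Their part in the gap between the controls was not tested.

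**Figure D2:**
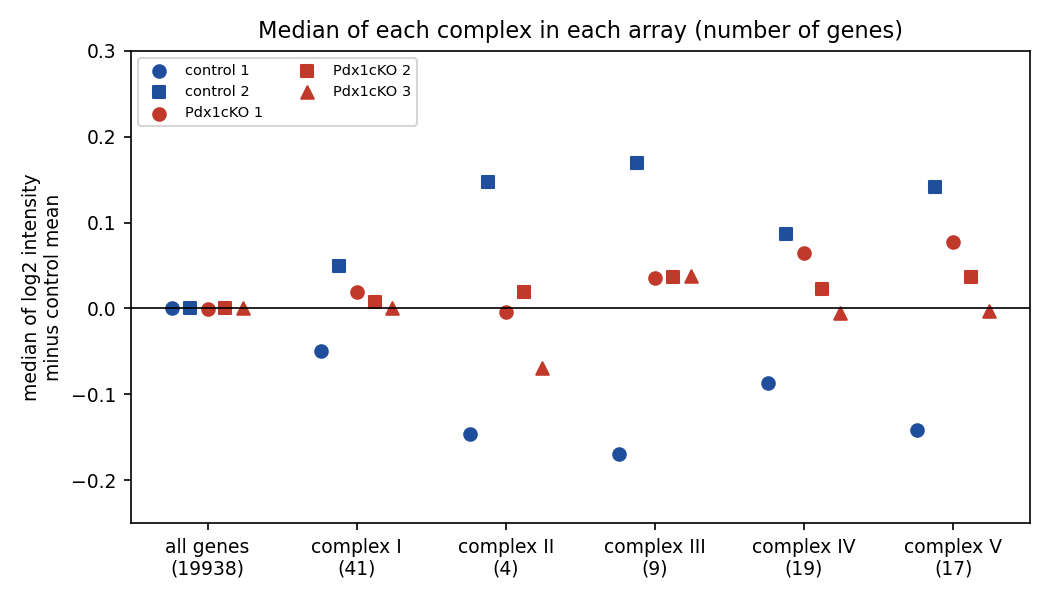
Median over the genes of each complex of log2 intensity minus the control mean, with 1 symbol per array (controls blue, mutants red). Control 1 is the lowest and control 2 the highest array in all 5 complexes, with the mutants in between.

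The direction of the calls turned on which control was kept. Without control 1, limma called 16 members lower and 1 higher at an adjusted p under 0.05 (8.94% and 8.04% of all genes). Without control 2, it called 1 lower and 20 higher (10.4% and 4.99% of all genes). Here the spread of a lone control is taken to equal that among the mutants. Among the members with a log2 fold change below 0 in the first case and above 0 in the second were Atp5h, Atp5md, Ndufa11, Ndufa12, Ndufs3, Ndufv2, Sdha and Uqcrq. For Sdha it was -0.16 and 0.48. Ndufa5 was lower in both, and its log2 fold change stayed between -0.33 and -0.29 whichever array was left out. How many of all genes turned in sign or kept it was not counted, so these members are not set apart from other genes.

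The core subunits of complex I carry its flavin and iron-sulphur clusters, and their median log2 fold change was 0.01. For Ndufs1, the largest of them, the controls gave 119.8 and 154 and the mutants 159, 154 and 154 (log2 fold change 0.20, standard error 0.124, limma adjusted p = 0.515). Control 1 stood apart, while control 2 equalled mutants 2 and 3, and the log2 fold change came to 0.02 against control 2 alone and 0.38 against control 1 alone. For Ndufv1, which binds NADH, the controls gave 398 and 418 and the mutants 414, 411 and 413, a log2 fold change of 0.02 with a 95% confidence interval of -0.06 to 0.09. Ndufs3 had 0.02 with an interval of -0.14 to 0.19, and its 2 probe sets differed in sign (0.05 and -0.00096). In 4 of the 6 core subunits all mutants lay within the range of the controls.

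The accessory subunits surround this core and help it to assemble, and their median log2 fold change was -0.01. Ndufa5, a subunit of the matrix arm, gave 117 and 119.9 for the control mice and 94.0, 95.0 and 96.6 for the mutants. All mutants lay below both controls, and neither group spread widely. The log2 fold change was -0.31 (standard error 0.0213, 95% confidence interval -0.37 to -0.25, limma adjusted p = 0.158), and its p ranked 26 among the 19938 genes. With limma its adjusted p was 0.0166 without control 1 and 0.0211 without control 2, but 0.576, 0.411 and 0.314 without mutants 1, 2 and 3. It was 0.925 with array weights and 0.653 with the replicate number as a block, while the log2 fold change stayed between -0.34 and -0.29 under every alternative run. Ndufa2, also of the matrix arm, gave 196 and 199 for the control mice and 239, 257 and 269 for the mutants, which lay above both controls. Its log2 fold change was 0.37 (standard error 0.06, limma adjusted p = 0.239). Ndufc2, of the membrane arm, gave 1151 and 1233 for the control mice and 1363, 1363 and 1520.3 for the mutants, again without overlap (log2 fold change 0.25, limma adjusted p = 0.394). Ndufa1, Ndufa6 and Ndufa7, named after their values were seen, were the further accessory subunits without overlap, with log2 fold changes of -0.36, -0.35 and -0.06. For Ndufa6 the gap lay largely between the controls, at 327 and 218, with the mutants at 216, 197 and 216. Ndufs5, also named after its values were seen, had the widest gap between the controls of all members, 39.3 and 82.2, with the mutants between them at 55.9, 50.4 and 55.9. A further probe set, shared with Ndufs5-ps and not used, showed no such gap, with 60.6 and 55.6.

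Among the 7 assembly factors of complex I, which join its parts without staying in it, 5 had a log2 fold change above 0 and 1 below, with a median of 0.09. Ndufaf1 gave 107 and 96.6 for the control mice and 126, 143 and 125 for the mutants, without overlap. Its log2 fold change was 0.36 (standard error 0.0901, limma adjusted p = 0.346). Ndufaf6 gave 44.8 and 42.4 for the control mice and 46.2, 46.2 and 48.2 for the mutants, also above both controls (log2 fold change 0.10, limma adjusted p = 0.514). Ndufaf4 had 0.14 (limma adjusted p = 0.515), and control 2 equalled mutants 1 and 3 at 65.8. Ndufaf5, named after its values were seen, had the same intensity, 44.96, in all 5 arrays. Exact ties were common in the deposited values. At least 1 tie was present in 60 of the 115 member probe sets (52.2%) and in 67.7% of all probe sets, and 13 member probe sets had a single value in all 3 mutants. No source used here says what made them equal, and a spread over tied values may be too small.

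**Figure D3:**
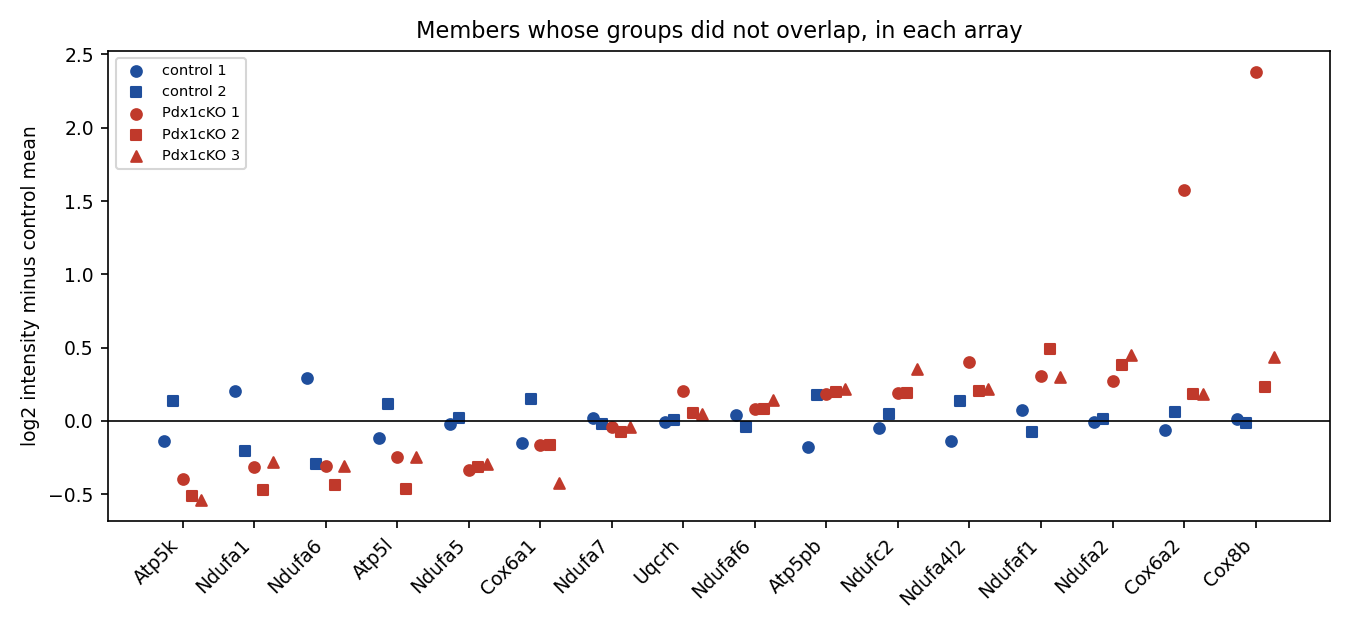
Log2 intensity minus the control mean, with 1 symbol per array (controls blue, mutants red), for the 16 members whose groups did not overlap, ordered by log2 fold change. The 7 members from Atp5k to Ndufa7 are lower in the mutants and the 9 from Uqcrh to Cox8b higher, with Pdx1cKO mouse 1 far above the others in Cox6a2 and Cox8b.

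Complex II, succinate dehydrogenase, had a median log2 fold change of -0.02, and its groups overlapped in all 4 genes. Sdha, the flavoprotein that oxidises succinate, gave 482 and 754 for the control mice and 673 for every mutant. The log2 fold change was 0.16 with a 95% confidence interval of -0.47 to 0.78, and it was -0.16 without control 1 and 0.48 without control 2. The membrane anchors Sdhc and Sdhd had -0.03 and -0.19 (limma adjusted p = 0.877 and 0.597). Sdhd gave 390.1 and 492 for the control mice and 402, 432 and 329.9 for the mutants, of which only mutant 3 lay below both controls.

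Complex III, the cytochrome bc1 complex, had a median log2 fold change of 0.09, which was -0.15 without control 1. Cyc1, cytochrome c1, gave 399 and 576 for the control mice and 647, 611 and 529 for the mutants (log2 fold change 0.31, standard error 0.205, limma adjusted p = 0.515). It came to 0.04 against control 2 alone and 0.57 against control 1 alone. Mutant 3 lay between the controls and the others above them. Uqcrh, the hinge protein, gave 637 and 641 for the control mice and 737, 663 and 659 for the mutants, and was the 1 gene of this complex without overlap (log2 fold change 0.10, limma adjusted p = 0.515). For Uqcr10, a small subunit, every mutant gave 232, between controls of 231 and 266 (log2 fold change -0.09, limma adjusted p = 0.522). Uqcrb, named after its values were seen, had the widest control gap of the complex, 708 and 1169, with the mutants at 1009, 1062 and 1101.

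In complex V the median log2 fold change was -0.02. Atp5k, subunit e of the membrane part, where it takes part in forming dimers, gave 166 and 200.1 for the control mice and 139, 128 and 126 for the mutants. Every mutant lay below both controls, and the log2 fold change of -0.48 was the most negative of all members (standard error 0.105, limma adjusted p = 0.309). Atp5l, subunit g and its partner there, gave 347 and 405 for the control mice and 316, 272 and 316 for the mutants, also without overlap (log2 fold change -0.32, standard error 0.113, limma adjusted p = 0.497). These are means of 6 probe sets, with log2 fold changes of -0.45 to -0.22, which may in part read copies of the gene. In the probe set at -0.22, control 1 equalled mutants 1 and 3 at 358, so that its groups were not apart. Atp5a1, the alpha subunit of the catalytic head, gave 1234 and 1502 for the control mice and 1594, 1502 and 1502 for the mutants (log2 fold change 0.17, limma adjusted p = 0.515), with control 1 the low value. It was 0.03 without control 1 and 0.31 without control 2. Averaged over its 2 probe sets, Atp5pb, of the stalk that holds the head, was without overlap in the other direction. It gave 383 and 492 for the control mice and 494, 499 and 506 for the mutants (log2 fold change 0.20, limma adjusted p = 0.515). Atp5pb was named after its values were seen. Neither probe set was without overlap by itself. In the first, mutant 2 equalled control 2 at 670, and in the other mutant 1 (358) lay below control 2 (361). The ring protein c comes from 3 genes, Atp5g1, Atp5g2 and Atp5g3, with log2 fold changes of -0.14, -0.10 and 0.08 (limma adjusted p = 0.808, 0.858 and 0.825). Control 1 was the higher control in Atp5g2 (1522 and 943) and the lower in Atp5g1 (1138 and 1688) and Atp5g3 (813 and 1147).

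The 11 general subunits of complex IV had a median log2 fold change of -0.09. Cox4i1 gave 613 and 617 for the control mice and 613 for every mutant, with an interval of -0.03 to 0.02 for the log2 fold change. Cox6a1 gave 542 and 666 for the control mice and 537, 536 and 448 for the mutants, and was the 1 general subunit without overlap (log2 fold change -0.25, standard error 0.143, limma adjusted p = 0.515). Cox7a2 and Cox8a had 0.12 and -0.14, with intervals of -0.11 to 0.36 and -0.38 to 0.10. Cox6b1, Cox7b and Ndufa4, the last named for complex I but a subunit of complex IV, had -0.09, 0.04 and 0.16 (limma adjusted p = 0.515, 0.942 and 0.653). The 2 probe sets of Cox7b differed in sign, at -0.05 and 0.13. Cox7a2l, which joins complexes III and IV, had -0.15 (limma adjusted p = 0.647). Cox5a, named after its values were seen, had the widest control gap of complex IV, 326 and 601, with the mutants between at 409.6, 382 and 381.

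The muscle isoforms were high in 1 mouse. Cox8b gave 31.4 and 30.9 for the control mice and 162, 36.7 and 42.2 for Pdx1cKO mice 1 to 3. Cox6a2 gave 54.9 and 59.7 against 170.3, 65.0 and 65.0 in the same arrays. Cox7a1 gave 51.0 and 78.9 against 170.4, 70.8 and 86.4. Mutant 1 was the highest array in each, and for Cox7a1 the other mutants lay around control 2, so that the groups overlapped. The log2 fold changes of Cox8b, Cox6a2 and Cox7a1 were 1.02, 0.65 and 0.68, with standard errors of 0.797, 0.542 and 0.495 and limma adjusted p = 0.531, 0.552 and 0.516. Without mutant 1 they were 0.33, 0.18 and 0.30. Of the general counterparts in mutant 1, Cox8a was at 1329.8, Cox6a1 at 537 and Cox7a2 at 491, each within the range of the other arrays.

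Skeletal muscle markers stood highest in the same mouse. The median of the 12 over the control mean was 3.13, 0.67 and 1.55 log2 in mutants 1 to 3. Mutant 3 was also second to mutant 1 in Cox8b and Cox7a1, while mutants 2 and 3 were equal in Cox6a2, at 65.0. Ckm, muscle creatine kinase, gave 169 and 232 for the control mice and 2009, 302 and 724 for the mutants, and Tnnt3, a fast troponin, gave 79.9 and 95.3 against 750.0, 109 and 243. Of 6 heart markers, 3 were highest in mutant 1. These were Actc1 (1751), Myl4 (269.9) and Myh6 (41.9, against 37.4 to 38.1 in the other arrays). Developing skeletal muscle also expresses Actc1 and Myl4. Nppa was between 33.9 and 35.9 in all 5 arrays. Of 8 markers of brown fat and adipocytes, 0 were highest in mutant 1, and Ucp1, the uncoupling protein of brown fat, was between 27.0 and 28.9. The part of muscle tissue in the isoform values was not tested.

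**Figure D4:**
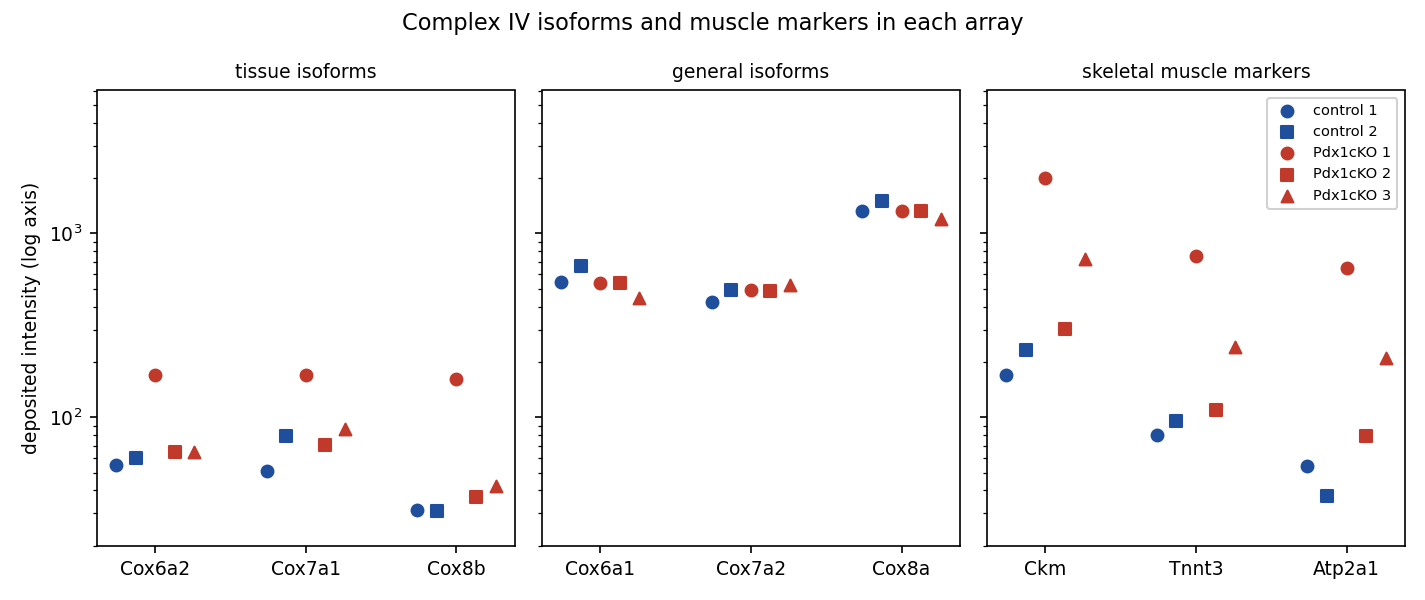
Intensity on a log axis of Cox6a2, Cox7a1 and Cox8b, of their general counterparts and of 3 skeletal muscle markers, with 1 symbol per array (controls blue, mutants red). Pdx1cKO mouse 1 is the highest array for every muscle isoform and marker, and lies within the range of the other arrays for the general forms.

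Among the remaining isoforms, Cox6b2, Cox7b2 and Cox8c, known from testis, had log2 fold changes of 0.14, 0.01 and -0.03 (limma adjusted p = 0.611, 0.751 and 0.676). Cox4i2, known from lung, had 0.03 with an interval of -0.05 to 0.10. Ndufa4l2, a paralogue of Ndufa4 known to respond to low oxygen, gave 73.1 and 88.3 for the control mice and 106, 92.7 and 93.5 for the mutants, all above both controls (log2 fold change 0.28, standard error 0.119, limma adjusted p = 0.515).

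Other mitochondrial genes also differed little. The log2 fold change was under 0.5 in size in 100% of the citric acid cycle enzymes, further assembly factors and mitochondrial ribosomal proteins. It was so in 93.3% of the regulators below and in 93.6% of all genes. By limma, 0 passed an adjusted p of 0.05, but 0% of all genes did, so that this count sets no list apart. Of 15 enzymes of the citric acid cycle and its entry, 0 had an unadjusted p under 0.05, against 5.04% lower and 5.29% higher over all genes. Control 2 was higher than control 1 in 13 (86.7%), against 38.6% of all genes. Suclg2, Suclg1 and Idh3b, with the smallest p, had log2 fold changes of -0.17, -0.23 and 0.06. Of 33 further assembly factors, an unadjusted p under 0.05 was reached by 2 that were higher and 0 that were lower: Timmdc1 of complex I (0.16) and Sdhaf1 of complex II (0.17). The share higher was 6.06%, near the 5.29% of all genes. Next came Cox17, a copper chaperone (-0.14). Of 77 mitochondrial ribosomal proteins, 2 were lower (2.60%) and 3 higher (3.90%) at that p, shares below those of all genes. The smallest p values were those of Mrps18c (log2 fold change -0.22), Mrpl9 (0.14) and Mrpl17 (0.28).

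The list of cytochrome c and regulators of mitochondrial genes held 15 genes, of which an unadjusted p under 0.05 was reached by 2 that were lower and 2 that were higher (13.3% each, against 5.04% and 5.29% of all genes). Yy1, a factor that binds many such promoters, gave 349 and 356 for the control mice and 338, 338 and 329.9 for the mutants (log2 fold change -0.07, limma adjusted p = 0.361). Ppard, a nuclear receptor of fat oxidation, gave 184 and 215 against 165, 154 and 165 (log2 fold change -0.30, limma adjusted p = 0.397). Gabpb1, a subunit of GABP, gave 91.7 and 100.01 against 111, 111 and 129.9 (log2 fold change 0.29, limma adjusted p = 0.465). In none of these 3 did the groups overlap. Ppargc1a, a coactivator of mitochondrial biogenesis, and Ppara, a receptor abundant in liver, were named after their values were seen. Ppargc1a gave 62.4 and 50.3 for the control mice and 68.1, 72.3 and 70.1 for the mutants (log2 fold change 0.32, limma adjusted p = 0.468). Ppara gave 55.3 and 58.7 against 109, 166 and 70.6, with mutant 2 highest and mutant 3 lowest among the mutants. The summed liver (28341, 34731 and 13525), granulocyte (2508, 3606 and 1334) and erythroid markers (1787, 2593 and 838) had the same order. The part of liver tissue or of blood cells in the Ppara value was not tested.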

How the data were processed

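Whole pancreas RNA was hybridised to 1-colour arrays, 1 for each of the 2 control and 3 Pdx1cKO mice. The deposited intensities are linear, and the authors processed them with GeneSpring GX software. No source used here says how background was corrected and arrays were normalized. The number of arrays limits the precision, and median intensities were 61.0 to 61.9.

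Intensities were log2 transformed without a pseudocount or filter. Platform annotation gave 1 symbol for 21789 of 28853 probe sets, several for 1621 and none for 5443. Probe sets of a gene were averaged, which gave 19938 genes, and Entrez identifiers of 21698 probe sets matched RefSeq (GRCm38.p6), with 0 symbols changed. Of the members, 17 have several probe sets, which differ in sign in 4 (Cox6c, Cox7b, Ndufa11 and Ndufs3). Subunits encoded by mitochondrial DNA had 0 probe sets with 1 symbol. Promoters were matched for 73 members.

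Groups follow the labels. They were compared with limma 3.58.1 in R 4.3.3 (lmFit, eBayes, Benjamini-Hochberg over all genes), tested on simulated data, and Python 3.11.15 was used for tables. The p-values measure the spread between these mice, and an exact permutation test of 2 against 3 arrays allows no p under 0.1. The rule for members uses names only, but it and the lists were chosen with earlier results of these data known. Named members are the 3 with the smallest p in each complex (by role in complex I), the alternative isoforms and their counterparts, and the extremes of fold change. In each other list the 3 with the smallest p are named. Alternatives were other scalings (median, quantile), leaving out dim genes, single or brightest probe sets, trend and robust eBayes, array weights, the methods' t-test, a replicate block and leaving out each array.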

Additional observations from a re-analysis of the deposited data

How the results depend on the processing

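With 2 control arrays, the counts rest on which array is kept. Leaving out each array in turn, limma calls at an adjusted p under 0.05 ran from 0 to 16 members lower and 0 to 20 higher (all genes 0 to 2072 and 0 to 1604), and those at an unadjusted p from 2 to 23 and 2 to 34 (all genes 638 to 3694 and 711 to 2958). Members without overlap, counted again without Pdx1cKO mouse 1 and without control 2 (a choice made after seeing the data), were 9 to 12 below (13.2% and 33.3% of all genes) and 10 to 50 above (14.2% and 25.5%). They were not counted without control 1. Medians of the log2 fold change ran from -0.038 to 0.078 over all members, -0.034 to 0.055 in complex I, -0.16 to 0.082 in complex II, -0.15 to 0.16 in complex III, -0.01 to 0.03 in complex IV, -0.12 to 0.14 in complex V and 0.15 to 0.24 in the tissue isoforms. The last was 0.28 over genes above the median level and above the lower quartile, where fewer isoforms remain (5 and 7). The methods' t-test called 7 genes lower and 3 higher over all genes, 0 of them members. At an unadjusted p, genes lower were 501 above the median level, where fewer were tested, and 391 with array weights, and genes higher 241 with array weights. Members lower were 4 after quantile normalization and 1 with array weights, which called 0 members higher. With every probe set on its own, 6 of 115 probe sets were lower. A gene with several probe sets, such as Atp5l with 6, can count more than once there. The cause of these shifts was not tested. Same-numbered arrays deviated with correlations of 0.03 and -0.0030. The deviations of 2 controls are mirror images of each other, so these values cannot show whether the numbers pair the mice. With the replicate number as a block, 605 genes and 1 member were lower at an unadjusted p, and Atp5g1 was at 0.033. Signs also turned for Ndufs3 (-0.0010) and Ndufv1 (-0.0033) after quantile normalization, Cox7b2 (-0.00015) after median scaling, and Cox7b (-0.048) and Ndufs3 (-0.00096) with 1 or the brightest probe set. Leaving out single arrays gave Atp5g1 -0.42 to 0.14, Atp5g2 -0.44 to 0.25, Atp5g3 -0.17 to 0.32, Cox6b2 -0.061 to 0.34, Cox7a2l -0.38 to 0.087, Cox7b -0.23 to 0.31, Cox7b2 -2.2e-05 to 0.013, Ndufa4 -0.10 to 0.42, Ndufs3 -0.061 to 0.11, Ndufv1 -0.020 to 0.053, Sdha -0.16 to 0.48, Sdhc -0.16 to 0.094 and Uqcr10 -0.19 to 0.010.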

Other observations

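A further 6 probe sets name a subunit together with a related copy and were kept out of all counts, since their signal cannot be assigned. The 3 for Cox7c, a small complex IV subunit, and Gm12338 had log2 fold changes of -0.13, -0.13 and -0.12. The 2 for Ndufb4, an accessory subunit of complex I, and Ndufb4b had 0.13 and 0.12. The 1 for Ndufs5 and Ndufs5-ps had 0.12, while Ndufs5 itself, counted among the 90 by another probe set, had -0.07.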
